A study of Mus musculus with 27 samples.

Results

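The enhancer side of the *Nkx3-2* topologically associating domain (TAD) comprised the 219 *BglII* restriction fragments of mouse chromosome 5 with a midpoint in chr5:41050000-41624975 (mm10). This interval runs from the start of the TAD to the base before *Rab28*, and holds the viewpoints N1 (position 41165743), N2 (41403998) and N3 (41535802). The fragments were chosen by position alone, out of 51862 on chromosome 5 and 949826 in all. Together they covered 578 kb, with a median length of 1.97 kb and a range from 0.018 to 16.5 kb, and 37.7% of their bases lay in repeats. The promoter side of the same TAD, from *Rab28* to the TAD end, held 64 fragments.

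Chromosome conformation was captured by 4C-Seq in forelimb buds, hindlimb buds and liver of C57BL/6 mouse embryos at E14.5, with 3 replicates per tissue for each viewpoint, or 27 libraries in all. No group carried a mutant allele or received a treatment, and each replicate was a pool of 5 to 6 embryos. The libraries were amplified with a pool of 6 viewpoint primers, so 1 template of a tissue and replicate served several viewpoints. Each tissue is a mixture of cells, and contacts in fewer cells and weaker contacts in each cell cannot be told apart. The 3 tissues were known by label only, since 4C-Seq measures no RNA from which tissue markers could be read.

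A TAD is a stretch of chromatin whose parts touch one another more often than they touch the chromatin beyond its borders. Enhancers are short regulatory sequences that act on promoters, often over long distances within a TAD. *Nkx3-2* encodes a homeodomain repressor of chondrocyte maturation in the developing skeleton. In 4C-Seq, cross-linked chromatin is cut and ligated, and sequences joined to 1 chosen fragment, the viewpoint, are amplified and counted. Reads on a fragment therefore record contacts with the viewpoint, together with random ligation and mapping noise.

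The 3 viewpoints are shown because each contact below is counted from or to these cut sites, with the *BglII* site in capitals and the bases of the forward strand from the nested primer to some way past the site. N1 spans chr5:41165733-41165794, N2 spans chr5:41403985-41404051 and N3 spans chr5:41535790-41535849 (GRCm38.p6).
N1: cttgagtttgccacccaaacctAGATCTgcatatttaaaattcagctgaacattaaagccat
N2: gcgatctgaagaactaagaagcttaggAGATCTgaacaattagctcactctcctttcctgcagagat
N3: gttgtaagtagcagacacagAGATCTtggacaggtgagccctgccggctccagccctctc
All 3 point towards *Nkx3-2*. The primers of N2 and N3 lay in the fragment that ends at the printed site, and the nested primer of N3 reached into the site itself. Those of N1 were parted by a second *BglII* site at chr5:41165708-41165713, so that its nested primer lay in a fragment of 47 bases and its biotin primer in the neighbouring fragment of 16.5 kb. The tested N1 enhancer (chr5:41165777-41166605) began 34 bases past the viewpoint, in the 5.59 kb fragment chr5:41165756-41171345. The tested N3 enhancer (chr5:41536216-41537263) began 414 bases past its viewpoint, in the fragment chr5:41535811-41540795. The N2 viewpoint lay downstream of the N2 enhancer, not on it.

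Depth differed by viewpoint. In total, N1 libraries held 2984 to 20134 reads, N2 libraries 165471 to 570405 and N3 libraries 924023 to 2376866. Most reads of each library lay outside chromosome 5. On it lay 678 to 4795 reads from N1, 10293 to 60110 from N2 and 240335 to 677645 from N3. On the enhancer side, outside 20 kb of the own viewpoint, lay 138 to 722, 36 to 2234 and 169 to 2965. The N1 totals were thus lowest, but not the enhancer-side counts. Reads within 20 kb of a library's own viewpoint were kept apart throughout. In N2 and N3 libraries the strongest fragments of that window touched the viewpoint's cut site. In N1 libraries the strongest fragment was instead 1 of 2 fragments between 41145334 and 41149231, just beyond the far end of the 16.5 kb fragment, and the reads continued into neighbours outside the window. One template stood apart: liver replicate 3 had reads on 94, 138 and 121 fragments of the enhancer side from N1, N2 and N3, against 14 to 38, 20 to 72 and 19 to 52 in the other libraries of each viewpoint. Several counts that rest on it are given with and without it.

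Most fragments of the enhancer side had no reads in any given library. Outside the own window, 16.1% ± 11.6 of fragments had at least 1 read from N1, 23.6% ± 18.1 from N2 and 22.0% ± 14.4 from N3 (SD, n = 9 each). On chromosome 5 as a whole the share of fragments with reads was 0.476% ± 0.548, 1.39% ± 1.38 and 2.99% ± 1.62. By tissue, the share from N2 was 20.2% ± 3.14 in forelimb, 11.7% ± 2.97 in hindlimb and 39.0% ± 26.6 in liver (SD, n = 3 each), and the large SD in liver came with the 67.3% of replicate 3. The other 2 liver libraries held 14.6% and 35.1%, so that limb and liver overlapped. In the 6 limb libraries alone the shares were 12.5% ± 4.63 from N1, 15.9% ± 5.38 from N2 and 17.1% ± 4.90 from N3.

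**Figure D1:**
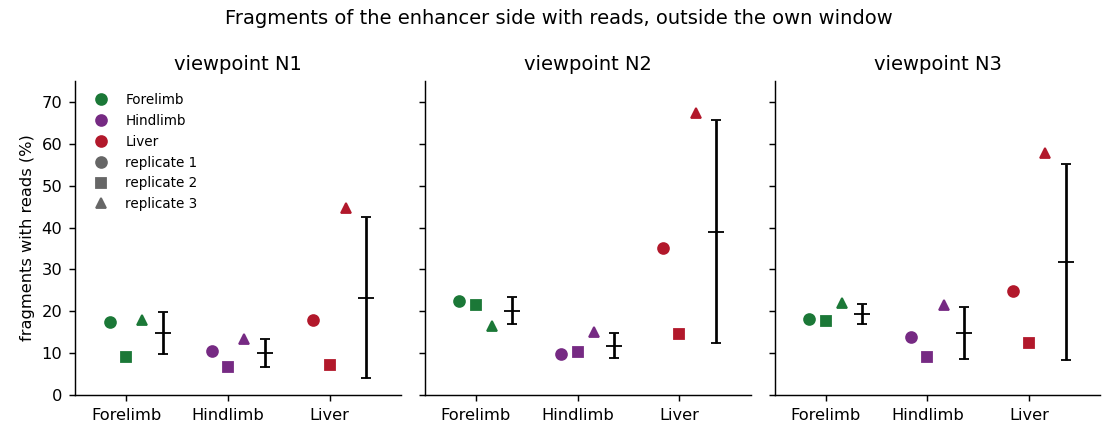
Percentage of enhancer-side fragments with at least 1 read in each library (vertical axis), by tissue and viewpoint, outside 20 kb of the own viewpoint. Symbols mark replicates, and the bars give the mean and SD of 3 libraries. Liver replicate 3 is the highest library from each viewpoint, at 44.5%, 67.3% and 57.9%.

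Reads gathered in different intervals of the enhancer side from each viewpoint. From N1, a median of 56.3% of the enhancer-side reads lay before N1, on 39 fragments, and 4.93% lay between N2 and N3. From N2, the interval between N1 and N2 held the most, a median of 49.5% of reads on 80 fragments. From N3, 50.5% lay between N2 and N3, and 26.5% lay beyond N3 on the 25 fragments before *Rab28*. Each viewpoint thus had its largest share in a neighbouring interval, although the shares count reads and single fragments carried much of them.

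Fragments close to the window edge led each profile. From N1 the highest mean in limb was at chr5:41138412-41144676, 24.2 kb before the viewpoint, with 42, 5 and 97 reads in forelimb replicates 1, 2 and 3, with 175, 57 and 33 in hindlimb and with 47, 31 and 46 in liver. In liver the highest mean from N1 was at its neighbour chr5:41144677-41145333, 20.7 kb before the viewpoint. That fragment carried 124, 41 and 139 reads in forelimb, 119, 4 and 88 in hindlimb and 102, 54 and 105 in liver. The limb and liver ranges overlapped at both fragments. From N2 the highest mean, in limb and in liver, was at chr5:41379126-41383901, 22.5 kb before the viewpoint. It carried 15, 60 and 6 reads in forelimb, 28, 1 and 15 in hindlimb and 88, 37 and 85 in liver. In counts, 1 forelimb library lay among the liver libraries. From N3 the highest mean, in limb and in liver, was at chr5:41513880-41514436, 21.6 kb before the viewpoint. It carried 97, 247 and 271 reads in forelimb, 601, 39 and 663 in hindlimb and 641, 516 and 897 in liver. All 9 libraries held reads, and tissues overlapped again. In repeats lay 92.3% of the bases of this fragment. Its neighbour inside the own window, chr5:41514437-41520408, carried nearly the same counts. These were 98, 247 and 302 in forelimb, 602, 39 and 673 in hindlimb and 646, 516 and 905 in liver.

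**Figure D2:**
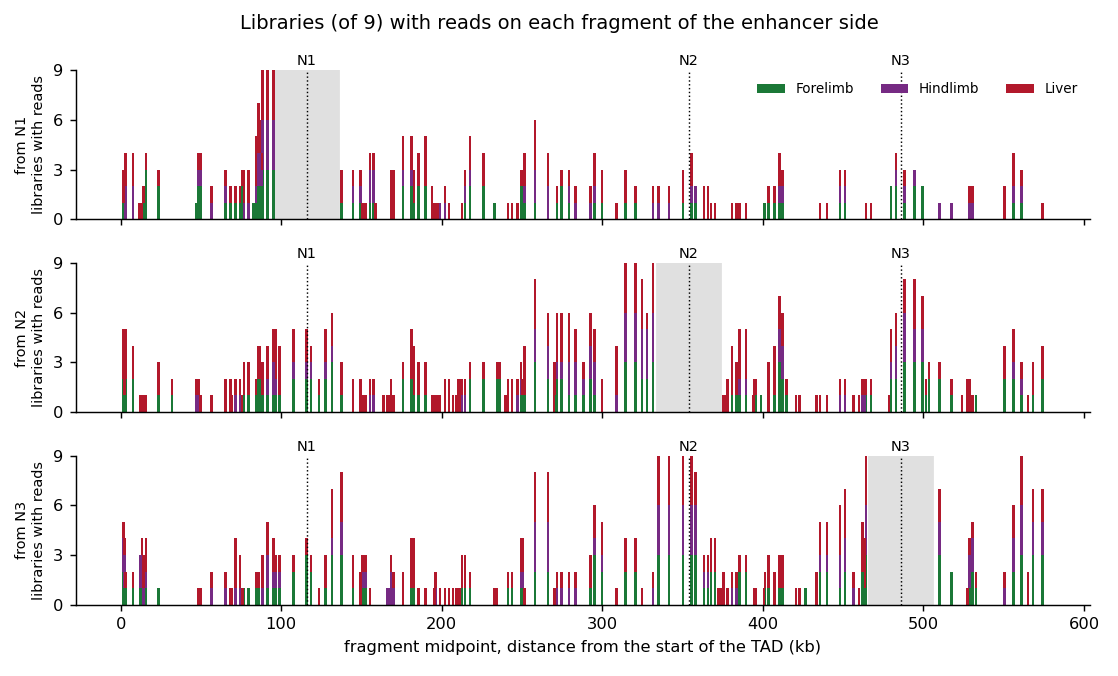
Number of libraries with reads on each enhancer-side fragment, stacked by tissue, against the distance of the fragment midpoint from the TAD start in kb, from N1, N2 and N3 in turn. Dotted lines mark the viewpoints, grey spans the own window of 20 kb to each side, and bars have a fixed width, so those of short neighbours overlap. From N3 the fragments at N2 had reads in up to 9 libraries.

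Enhancer-side fragments were occupied more often than fragments at the same distance on the other side of the viewpoint. For each viewpoint, the part of the enhancer side whose mirror image falls outside the enhancer side was compared with that image. From N2, the 47 fragments of chr5:41050949-41183708 had reads in 25.3% ± 20.9 of cases and the 48 mirrored fragments, across *Rab28*, in 14.6% ± 16.4, a difference of 10.7 percentage points (SD 6.09) that was positive in 9 of 9 libraries. From N3, 149 fragments from chr5:41050949-41447105 stood at 22.1% ± 16.2 against 14.3% ± 15.3 for 146 mirrored fragments, a difference of 7.77 points (SD 2.52), again positive in 9 of 9. The N3 mirror runs to 42016961, past the TAD end at 41810000, so part of it lies outside the TAD. The promoter-side fragments alone had reads from N3 in 19.8% ± 17.3 of cases (SD, n = 9). The part of the TAD border in this difference was not tested. From N1, whose mirror lies before the TAD, 133 fragments stood at 10.6% ± 9.09 against 4.43% ± 7.70 for 148, a difference of 6.18 points (SD 5.27) in 8 of 9 libraries. Exact two-sided sign-flip permutation tests over the 9 libraries gave adjusted p = 0.00586 for N2, p = 0.00586 for N3 and p = 0.0195 for N1. The difference was 7.28 points in limb and 17.6 in liver from N2, 8.10 and 7.09 from N3, and 6.56 and 5.43 from N1. Without liver replicate 3 the differences were 9.51, 7.53 and 6.23 points from N2, N3 and N1 and passed the same test. Weighting the mirrored fragments to the same lengths left it at 9.49, 8.24 and 5.86 points from N2, N3 and N1. When mean reads per fragment were compared in place of fragments with reads, the log2 ratios were 1.14, 0.36 and 0.49 for N2, N3 and N1, and only N2 passed, at adjusted p = 0.0469 by the exact test.

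**Figure D3:**
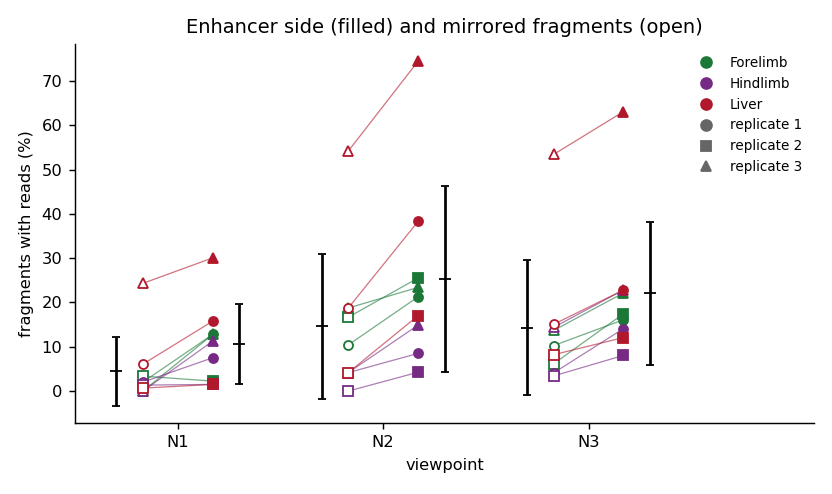
Percentage of fragments with reads on the enhancer side (filled) and among distance-matched fragments mirrored about the viewpoint (open), for viewpoints N1, N2 and N3. Lines join the values of 1 library, and bars give the mean and SD of 9 libraries. All 9 lines rise from N2 and from N3, and 8 of 9 from N1.

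Reciprocal contacts among N1, N2 and N3 were measured as the share of fragments with reads within 20 kb of the other viewpoint, against fragments 1/1.5 to 1.5 times as far away on either side. For N3 to N1, N1 to N2 and N1 to N3, part of these compared fragments lay outside the TAD, while every target lay inside it. For N3 to N1 they lay 247 to 555 kb from N3. The part of the TAD borders in these differences was not tested. The compared fragments were matched to the targets in distance only, not in length or share of repeats. Weighting by length and leaving out repeat-rich fragments were among the alternatives run. The 6 directed pairs were tested as 1 family.

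N2 and N3, 132 kb apart, held reads at each other in every library. Seen from N2, the 10 fragments around N3 carried 104, 43 and 49 reads in forelimb replicates 1, 2 and 3, with 11, 7 and 1 in hindlimb and with 45, 51 and 280 in liver. Hindlimb was lowest and liver replicate 3 highest. Reads fell on 46.7% ± 25.5 of these fragments against 15.7% ± 18.4 expected, a difference of 31.0 points (SD 18.5) that was positive in 9 of 9 libraries. Seen from N3, the 14 fragments around N2 carried 146, 156 and 102 reads in forelimb, with 90, 18 and 177 in hindlimb and with 149, 29 and 336 in liver. The 3 tissues overlapped. Reads fell on 49.2% ± 10.4 of fragments against 19.0% ± 17.9, a difference of 30.2 points (SD 14.9), positive in 9 of 9. Both directions had adjusted p = 0.00781 by the exact sign-flip permutation test, and without liver replicate 3 the differences were 31.3 and 33.6 points. With targets of 50 kb to each side the differences were 1.74 and 6.21 points and neither passed. The fragment with the tested N3 enhancer had reads in 8 of 9 N2 libraries, with 1, 3 and 3 reads in forelimb, with 2, 3 and 1 in hindlimb and with 11, 0 and 65 in liver. Both fragments at the N2 cut site had reads in 9 of 9 N3 libraries, while they held 25.1% of the reads around N2.

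N1, 238 kb from N2 and 370 kb from N3, was reached from both. Seen from N2, the 8 fragments around N1 carried 10, 76 and 7 reads in forelimb, with 15, 4 and 18 in hindlimb and with 50, 6 and 174 in liver. Every library held reads, and the tissues overlapped. Reads fell on 50% ± 28.6 of fragments against 16.5% ± 18.2, a difference of 33.5 points (SD 15.3) in 9 of 9 libraries, with adjusted p = 0.00781 by the exact test. Seen from N3, the same fragments carried 91, 12 and 11 reads in forelimb, with 0, 0 and 7 in hindlimb and with 87, 1 and 100 in liver. Of the 9 libraries, 2 hindlimb libraries had none. Reads fell on 37.5% ± 33.7 of fragments against 12.6% ± 14.2, a difference of 24.9 points (SD 25.2) in 7 of 9, with adjusted p = 0.0352 by the exact test. Within 10 kb of N1 the differences were 26.8 points from N2 and 17.4 from N3 and neither passed, and the N3 value also failed with 3 reads as the minimum and when 1 template was left out, at adjusted p = 0.0586 to p = 0.0703 by the exact test, except without hindlimb replicate 1 or 2, the libraries with no reads there. Without liver replicate 3 it was 21.7 points. The most read fragments lay 11.9 and 15.9 kb past the N1 viewpoint: they held 27.8% and 26.7% of the reads around N1 in N2 libraries and 36.6% and 44.7% in N3 libraries. The fragment with the tested N1 enhancer had reads in 4 of 9 N2 libraries and 3 of 9 N3 libraries.

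The view from N1 was less complete. The 14 fragments around N2 carried 30, 0 and 0 reads in forelimb, with 22, 0 and 12 in hindlimb and with 28, 0 and 18 in liver. The difference was 8.50 points (SD 12.3), above 0 in 5 of 9 libraries. The 10 fragments around N3 carried 34, 44 and 8 reads in forelimb, with 12, 0 and 0 in hindlimb and with 54, 0 and 0 in liver. There the difference was 12.6 points (SD 19.1), also above 0 in 5 of 9. Neither passed the exact permutation test, at adjusted p = 0.0750 and p = 0.0938. A library of these held at most 20134 reads, so a fragment listed at 0 allows up to 3 reads, or 149 to 1005 RPM (reads scaled to the total of the library), by counting error alone. The difference between the 2 directions of a pair was not tested.

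**Figure D4:**
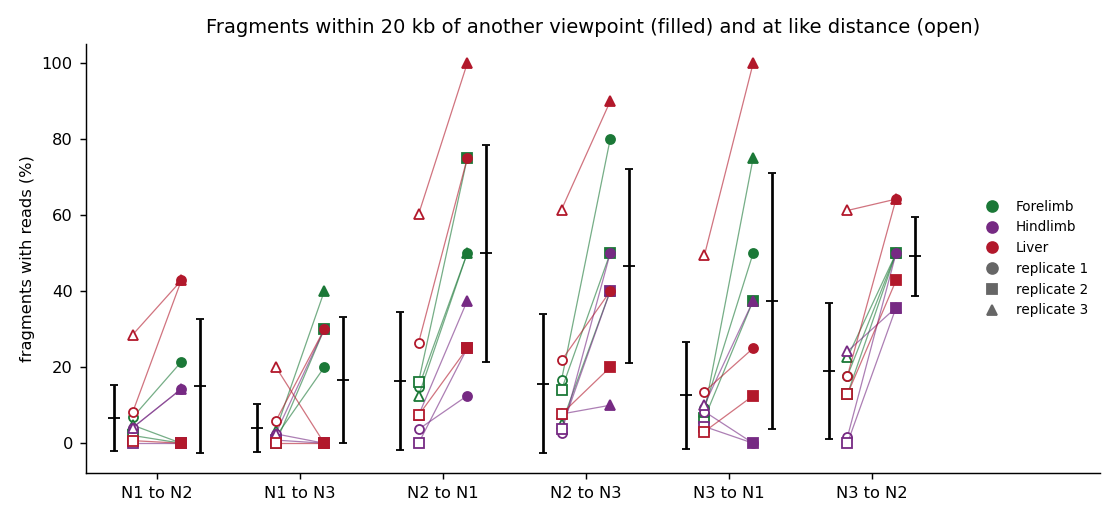
Percentage of fragments with reads within 20 kb of another viewpoint (filled) and at 1/1.5 to 1.5 times its distance (open), for the 6 directed pairs (horizontal axis, source to target). Lines join the values of 1 library, and bars give the mean and SD of 9 libraries. From N2 and between N2 and N3 all lines rise, while from N1 only 5 of 9 do for each target.

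Since several viewpoints were amplified from 1 template, fragments that are strong in a target's own libraries were also examined. The 2 strongest held 38.7% of the reads around N3 in N2 libraries, 25.1% of those around N2 in N3 libraries, 10.6% and 2.91% of those around N1 in N2 and N3 libraries, and 38.2% and 30.3% of those around N2 and N3 in N1 libraries. In the target's own libraries the same pairs held 92.9% around N3, 97.4% around N2 and 66% around N1. Without these fragments the differences were 23.2 points for N2 to N3, 21.7 for N3 to N2, 33.5 for N2 to N1 and 26.3 for N3 to N1, with adjusted p from 0.0313 to 0.0352 by the exact permutation test. Libraries of different viewpoints shared a median of 29.6% of their occupied fragments when they came from the same template, 26.6% within a tissue and 26.4% between tissues, against 14.4% for independent draws over 187 fragments. The part of cross-talk between viewpoints in these reads was not tested.

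Limb and liver values of each contact lay side by side without a test of their own. RPM is scaled to the library total, whose share on chromosome 5 differed between libraries. From N2, chromosome 5 held 12174 of 482086 reads in forelimb replicate 2 and 31831 of 231130 in liver replicate 3. In RPM, N3 held 74.8 ± 34.7 around N2 in limb (SD, n = 6) and 76.9 ± 63.8 in liver (SD, n = 3). N2 held 85.1 ± 80.4 around N3 in limb and 472 ± 641 in liver, where replicate 3 alone reached 1211. N3 held 12.0 ± 19.6 around N1 in limb and 28.9 ± 24.6 in liver. N1 held 909 ± 1085 around N2 in limb and 919 ± 801 in liver, and 1262 ± 1489 around N3 in limb and 944 ± 1635 in liver. N2 held 59.5 ± 59.4 around N1 in limb and 287 ± 406 in liver, where replicate 3 reached 753. The mean was higher in liver for 5 of the 6 contacts and higher in limb for N1 to N3, and the SD exceeded or neared the mean in most of these groups. This tally rests on liver replicate 3. Replicates 1 and 2 held 75.6 and 13.8 RPM for N3 to N2, and 92.7 and 14.3 for N2 to N1. They held 1469 and 0 for N1 to N2, and 2833 and 0 for N1 to N3. Without replicate 3 the direction turns for these contacts. It stays for N2 to N3 (83.4 and 121) and N3 to N1 (44.1 and 0.474).

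Recurrent contacts were counted as fragments with reads in many of the libraries for which they lay outside the own window. Of the 219 fragments, 48 had no reads in any library, 17 had reads in 1 library, 44 in 2 to 4, 66 in 5 to 9 and 44 in 10 or more. All eligible viewpoints reached 108 of them, or 49.3%, where fragments within 20 kb of a viewpoint needed reads from the other 2 only. Over the 187 fragments eligible from all 3 viewpoints, 85 were reached by all, or 45.5%. That share was 42.2% of the 64 promoter-side fragments, which all needed 3, 5.08% of 1399 fragments within 2 Mb but outside the TAD and 0.187% of the other 50180 fragments of chromosome 5. Reads in at least 1 library were found on 78.1% of enhancer-side and 85.9% of promoter-side fragments. The difference between the 2 sides was not tested. Without liver replicate 3 the count of 108 was 73, and with limb libraries alone it was 56. The other counts and shares of this paragraph include liver replicate 3. The promoter-side and background shares were not computed without it, so the lower counts have no such share beside them.

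The most recurrent fragment, chr5:41302411-41313578, lies between N1 and N2, 142 kb past N1, 96.0 kb before N2 and 228 kb before N3, and overlaps no annotated gene. It had reads in 22 of 27 libraries, with all 9 liver libraries among them. From N1 it carried 6, 0 and 0 reads in forelimb, with 0, 1 and 2 in hindlimb and with 21, 5 and 11 in liver. From N2 the reads were 10, 10 and 2 in forelimb, with 0, 1 and 30 in hindlimb and with 69, 4 and 81 in liver. From N3 they were 0, 55 and 18 in forelimb, with 1, 2 and 1 in hindlimb and with 185, 3 and 61 in liver. Liver tended to hold the highest counts, although limb and liver ranges overlapped from all 3 viewpoints. Its neighbour chr5:41313579-41318913 had reads in 18 of 27 libraries, often in the same number, such as 185 in liver replicate 1 from N3. The cut site that both share is shown from either side, since reads counted on both fragments meet there, with the *BglII* site in capitals (forward strand, chr5:41313518-41313583 and chr5:41313578-41313643).
left of the shared site: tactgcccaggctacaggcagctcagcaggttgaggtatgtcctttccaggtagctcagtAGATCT
right of the shared site: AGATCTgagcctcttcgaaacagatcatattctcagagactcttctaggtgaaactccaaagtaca
Equal counts on neighbouring fragments were common, and 31.2% ± 7.04 of the occupied enhancer-side fragments in N2 libraries had the same count as the fragment just before them (SD, n = 9).

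Of the 10 most recurrent fragments, 6 lay within 20 kb of a viewpoint and were scored from the other viewpoints alone. They were chr5:41179602-41183708 near N1 with reads in 13 of 18 libraries, then chr5:41404013-41406857 with 13 of 18, chr5:41396458-41404012 with 12 of 18 and chr5:41386376-41396457 with 11 of 18 at N2, and chr5:41540796-41548255 and chr5:41535811-41540795 at N3 with 11 of 18 each. The remaining 2, chr5:41138412-41144676 and chr5:41144677-41145333, had reads in 18 of 27 libraries each, 9 of them from N1, whose window ends beside them. The fragments chr5:41396458-41404012 and chr5:41404013-41406857 meet at the N2 cut site printed above, and chr5:41535811-41540795 begins at the N3 cut site.

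Annotated genes on the enhancer side were few. In GENCODE vM21 none of those that lie in the interval before *Rab28* encodes a protein, but the last of the 219 fragments, chr5:41619246-41628987, runs past 41624976, the end of *Rab28* nearest the enhancers. *Rab28* encodes a small GTPase of the Rab family. That fragment had reads in 12 of 27 libraries, 1 from N1, 4 from N2 and 7 from N3. *Gm4754*, a processed pseudogene at chr5:41342123-41342931, overlapped 3 fragments, which had reads in 3, 11 and 15 of 27 libraries. The last of these, chr5:41342766-41347267, carried up to 75 reads. *4930519E07Rik*, a transcript of unproven coding status at chr5:41281236-41282900, overlapped 2 fragments with reads in 7 and 2 of 27 libraries. *Gm43806*, a processed pseudogene at chr5:41421576-41422044, lay in a fragment with reads in 1 of 18. Processed pseudogenes resemble their parent genes, and the mapping filter that the authors used removes reads with no unique place.

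Recurrence varied with the make-up of the fragments. The 48 fragments without reads had a median length of 0.454 kb and a median of 100% of bases in repeats, and 23 of them were shorter than 200 bases. The 110 fragments with reads in 5 or more libraries had medians of 2.71 kb and 25.7%. Across the 219 fragments, Spearman's rho with the number of libraries with reads was 0.48 for length, 0.28 for GC content and -0.42 for the share of repeats. These fragments share libraries and neighbours and are no independent replicates.

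**Figure D5:**
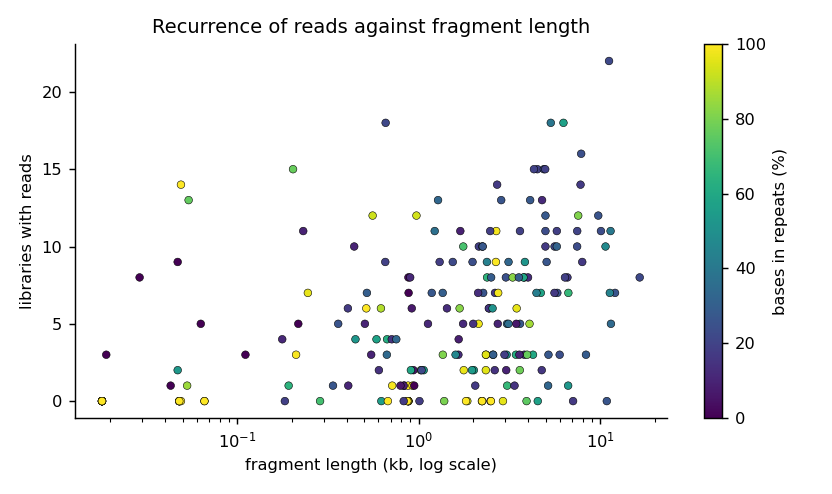
Number of libraries with reads (vertical axis) against fragment length in kb (log scale) for the 219 enhancer-side fragments, coloured by the percentage of bases in repeats. Longer fragments tend to have reads in more libraries, up to 22, and many of the short fragments without reads lie wholly in repeats.

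No difference between limb and liver in the share of reads on the enhancer side passed after adjustment. Of the chromosome 5 reads outside the own window, N1 placed 27.1% ± 8.02 there in limb (SD, n = 6) and 19.4% ± 1.84 in liver (SD, n = 3). The N1 difference of 7.73 points depended on the fragments beside the window: it was 12.7 points with 10 kb kept apart to each side and 0.143 points with 50 kb, with unadjusted p = 0.0357 and p = 0.976 by the exact permutation test. N2 placed 4.00% ± 1.88 in limb and 8.85% ± 5.16 in liver, and N3 placed 1.1% ± 0.592 and 1.48% ± 0.679. Two-sided exact permutation tests over 84 arrangements, whose smallest p is 0.0119, gave p = 0.179, p = 0.0357 and p = 0.369, and after adjustment over the 3 viewpoints p = 0.268, p = 0.107 and p = 0.369. From N2, 4 of 6 limb libraries lay below the lowest liver library. Limb minus liver was -4.86 points there, and -1.95 without liver replicate 3. Counting each fragment with reads once turned the N2 and N3 differences to 0.773 and 0.230 points in favour of limb.

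Fragment by fragment, no contact of the enhancer side passed the test between limb and liver or between forelimb and hindlimb. The edgeR quasi-likelihood test over all fragments with enough reads called 0% of the 35, 1049 and 3684 fragments tested from N1, N2 and N3, and 0 of the 6, 21 and 19 enhancer-side fragments among them, in either comparison. DESeq2 also called 0 on the enhancer side. At an unadjusted p under 0.05, edgeR counted 0, 9 and 2 of them between limb and liver, and 0, 2 and 0 between forelimb and hindlimb. The same rule took 0%, 4.67% and 5.46% of all fragments tested between limb and liver, and 2.86%, 6.48% and 7.25% between forelimb and hindlimb. Without liver replicate 3 the N2 count between limb and liver was 2 of 24 in place of 9 of 21. The median log2 fold change of limb over liver from N2 was -3.45 on the enhancer side and -0.11 over all fragments tested. Without liver replicate 3 it was -2.37, over 24 fragments. From N3 the medians were -0.52 and -0.03, and without liver replicate 3 the enhancer-side median was 0.27. Limb in these values is the mean of forelimb and hindlimb on the log scale. From N2, the median of forelimb over hindlimb was 2.73 on the enhancer side and 0.02 over all fragments tested. At chr5:41135675-41135728, N2 reads were 25, 0 and 21 in forelimb, 0 in each hindlimb library and 23, 0 and 27 in liver. Limb over liver was -4.24 there, although forelimb and liver counts were alike. The filter keeps fragments with reads in several libraries, so these fragments are the better covered part of the enhancer side, and a p that misses the threshold does not show that limb and liver contacts were alike.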

How the data were processed

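The fragments of interest, the tests and the named items were chosen with earlier results of these data known. The named items were the 3 viewpoints, the N1 and N3 enhancers, the annotated genes that overlap the interval, up to 10 fragments with reads in the largest share of eligible libraries (ties by median RPM), the fragment with the highest mean outside the own window for each viewpoint in limb and in liver, and up to 3 fragments per edgeR test with an adjusted p below 0.05, of which there were none.

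Per the labels and methods, the authors trimmed reads (cutadapt 1.10), mapped them to mm10 (BWA 0.7.10-r789), kept alignments with a MAPQ of at least 30, removed blacklisted regions and assigned reads to *BglII* fragments. The deposited values used are raw counts of reads per fragment. No molecular identifiers were used, so PCR copies were counted and limits from counts cover counting error only. Titles set tissue, viewpoint and replicate. For hindlimb replicate 3 another label gives another replicate number, for the N3 liver libraries the description names another enhancer, and labels and methods differ in the C57BL/6 substrain. The labels do not say whether replicates share a litter, so p-values measure the spread between these pools. No 2 libraries were identical.

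The fragment ends in the deposited files match each of the 51861 *BglII* sites in the GRCm38.p6 sequence of chromosome 5, which was therefore used for sequences. A fragment counted as occupied from 1 read. The distance-matched and mirrored comparisons used exact sign-flip permutation tests over 9 libraries (512 arrangements, smallest p 0.00391), and limb and liver were compared by exact permutation. All were two-sided with Benjamini-Hochberg adjustment and a threshold of 0.05. Fragments were tested across the genome with edgeR 4.0.16 (filterByExpr, TMM, quasi-likelihood), and again with DESeq2 1.42.0 (R 4.3.3). All else was computed with Python 3.11.15, numpy 2.4.6, scipy 1.17.1 and pandas 2.3.3. The edgeR fit was run on simulated counts with less spread between libraries than these data, and the permutation tests on normally distributed values. These runs checked the code and do not show what difference could be detected here. Weighting by fragment length, leaving out repeat-rich fragments, leaving out the strongest fragments of a target's own libraries, and counting all-viewpoint fragments without liver replicate 3 were alternatives chosen after seeing the data.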

Additional observations from a re-analysis of the deposited data

Results flagged for a closer look

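Of 15 sets of libraries checked for a value far from the rest, 4 had one, and chance gives about 1 in 20. Liver replicate 3 had reads on 44.5% of enhancer-side fragments from N1, against 6.64% to 18% in the other 8 libraries. From N2 it had reads on 67.3%, against 9.76% to 35.1%. From N3 it had reads on 57.9%, against 9.09% to 24.9%. The 3 libraries come from 1 template, and the cause was not tested. From N1 to N2, liver replicate 1 lay 34.7 points above the expected share of fragments with reads, against -4.76 to 14.6 in the other 8 libraries.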

How the results depend on the processing

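No contact of the enhancer side was called by edgeR under any of the alternatives run, nor by DESeq2. Across the genome, edgeR called 0 fragments while DESeq2 called 10 from N2 and 70 from N3 between forelimb and hindlimb, and 14 from N3 between limb and liver. In some alternatives edgeR called 1 to 3, with a filter of reads in at least 2 libraries or without 1 library.

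Counting each fragment once turned the limb minus liver share to 0.773 points (N2) and 0.230 points (N3), where no setting passed after adjustment. The mirrored comparison kept its direction in every alternative. It missed the threshold for mean reads per fragment, at log2 ratios of 0.49 (N1) and 0.36 (N3), and in limb alone for N1, at 6.56 points. The reciprocal contacts also kept their direction in every alternative. They missed the threshold with targets of 10 kb to each side from N2 and N3 to N1 (26.8 and 17.4 points), with 50 kb for N2 to N3 and N3 to N2 (1.74 and 6.21 points), for N3 to N1 from 3 reads (10.9 points), and for mean reads per fragment to N1 (log2 ratios of 1.08 from N2 and 0.80 from N3). In limb alone they were 32.6 (N2 to N1), 36.7 (N2 to N3), 25.5 (N3 to N1) and 32.1 points (N3 to N2), with adjusted p from 0.0625 to 0.15 by the exact permutation test, whose smallest p over 6 libraries is 0.0313. Leaving out each template in turn gave 19.7 to 29.1 points for N3 to N1. Fragments reached by all eligible viewpoints numbered 71 from 3 reads, 56 in limb alone and 54 to 107 without 1 replicate number, lowest without replicate 3, which holds the broad liver libraries. The cause of these shifts was not tested.

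No pairing of the samples by replicate number was seen. Deviations of same-numbered libraries correlated at a mean of -0.033, -0.050 and -0.080 for N1, N2 and N3, with 2, 1 and 2 of 9 pairs above 0.1. These correlations rest on 79, 106 and 95 sparsely read fragments, and a shared litter or batch was not tested. When replicate numbers formed a block, the exact sign-flip test has 3 values and cannot reach the threshold. The blocked means were 6.18, 10.7 and 7.77 points against the mirror for N1, N2 and N3, then 33.5 (N2 to N1), 31.0 (N2 to N3), 24.9 (N3 to N1) and 30.2 points (N3 to N2). For limb minus liver the blocked test gave no call, with adjusted p of 0.111 to 0.222 by exact permutation.

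Total depth was lowest in N1 libraries, at 2984 to 20134 reads, while the fewest enhancer-side reads, 36, were in hindlimb replicate 2 from N2. Read counts include PCR copies. Occupied fragments are a coarse measure where most fragments hold no reads.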
